A study of Rattus norvegicus with 8 samples.

Results

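Rat miR-143 and miR-145 are a pair of microRNAs (miRNAs) cut from neighbouring hairpins, and they were followed here in the kidneys of rats given aristolochic acid (AA) or saline. Their rows were found in the deposited table of reads per known rat miRNA by name alone, as every row named rno-mir-143 or rno-mir-145 in any letter case, with or without an arm suffix. This gave 5 of the 620 listed rows, which are rno-miR-143, rno-miR-143*, rno-miR-145, rno-miR-145* and a separate row that the table spells rno-mir-143*. The animals were male Big Blue rats, Fisher 344 transgenics that carry a bacterial reporter gene for scoring mutations, and the labels give their age as 6 weeks. As dosing lasted 12 weeks, this cannot be their age when the kidneys were taken. AA, a plant carcinogen of 96% purity, was gavaged as its sodium salt into 4 rats at 10 mg/kg in 4 ml/kg, with 5 doses weekly over 12 weeks. The 4 control rats were dosed with 0.9% sodium chloride at the same times, so that both groups shared strain, sex, age and handling, and kidneys were taken 1 day after the last dose. The 8 libraries are named by group and the number in their titles, and each held between 13412373 and 15616670 reads on the listed miRNAs.

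Both hairpins are cut from 1 primary transcript, after which Dicer leaves a short duplex whose strands can each be loaded as a mature miRNA. The pair is best known from vascular smooth muscle, where serum response factor and myocardin switch the transcript on and where miR-143 and miR-145 favour the contractile over the proliferative state of the cell. In the kidney, smooth muscle and related mural cells surround the renal arteries and the arterioles of the glomeruli. The names with a star come from older miRBase releases, in which the star marked the less abundant arm. For miR-143 the star is the 5p arm and for miR-145 it is the 3p arm, so that the abundant arms lie on opposite sides of their hairpins.

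The 4 mature sequences are shown because they define what the 4 rows spelled with miR count and which seed each arm carries. They were taken from RefSeq on the rat assembly GRCr8, not from the counts table, which holds names only. The capitals mark the seed, bases 2 to 8 from the 5′ end.
rno-miR-143-3p, row rno-miR-143, chr18:57371373-57371394, minus strand: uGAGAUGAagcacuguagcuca
rno-miR-143-5p, row rno-miR-143*, chr18:57371408-57371428, minus strand: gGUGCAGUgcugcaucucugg
rno-miR-145-5p, row rno-miR-145, chr18:57370033-57370055, minus strand: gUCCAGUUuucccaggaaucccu
rno-miR-145-3p, row rno-miR-145*, chr18:57369997-57370017, minus strand: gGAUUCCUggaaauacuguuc
The 4 seeds differed from each other, and none of the other mature rat miRNAs among the 724 in the RefSeq table carried any of them. Despite their shared transcript, the 4 arms therefore read different target sites. The row rno-mir-143* has no sequence in the sources used here and was not matched to an arm.

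The hairpins are shown to place both arms on their precursors, with the arms in capitals and the flanks and loop in lower case.
Mir145, chr18:57369983-57370070, minus strand: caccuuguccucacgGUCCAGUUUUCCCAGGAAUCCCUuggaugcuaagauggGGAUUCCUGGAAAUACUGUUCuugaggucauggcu
Mir143, chr18:57371349-57371453, minus strand: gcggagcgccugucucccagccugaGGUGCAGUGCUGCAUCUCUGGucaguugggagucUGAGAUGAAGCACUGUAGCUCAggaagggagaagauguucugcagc
They lay 1278 bases apart on the same strand, with Mir143 upstream. In the RefSeq gene table the only gene that covers both is Carmn, a long non-coding RNA known from heart and smooth muscle lineages, and whether they lie in its exons or introns was not analysed here. Folding with RNAfold gave a minimum free energy of -63.5 kcal/mol over 105 bases for Mir143 and -39.9 kcal/mol over 88 bases for Mir145, and energies of unequal lengths are not directly comparable. The predicted structures paired 16 bases between the arms of Mir143 and 17 between those of Mir145.

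The members of the cluster differed far more in abundance from each other than any of them did between the groups. rno-miR-143 was the second most abundant miRNA of the kidney, at a mean of 176670 CPM over the 8 libraries (reads per 1000000 reads of the library, after TMM scaling of the library sizes). It lay between rno-miR-378 at 230924 ± 70558 CPM, whose spread reached its level, and rno-miR-30a at 118540 ± 16712 CPM, whose spread did not (SD over 8 libraries). In the AA group alone, rno-miR-21 at a mean of 128589 CPM lay above rno-miR-30a at 111448 CPM. rno-miR-145 ranked 65, between rno-miR-15b and rno-miR-20a, at 624 CPM, a level within the spread of both neighbours (631 ± 100.3 and 566 ± 164 CPM, SD over 8 libraries). These SDs pool both groups and so hold the difference between them as well as the spread between rats. rno-miR-378 was at 289282 ± 44868 CPM in controls and 172565 ± 22827 CPM after AA (SD, n = 4 each). rno-miR-20a was at 451 ± 111 CPM in controls and 681 ± 122 CPM after AA (SD, n = 4 each). The star arms were lower still, at rank 146 for rno-miR-143* and 191 for rno-miR-145*. CPM count molecules captured by ligation and sequencing, and ligation efficiency differs between miRNA sequences, so that these levels rank reads and not necessarily molecules. In saline-treated rats, 353 reads of rno-miR-143 were counted for each read of rno-miR-145 (geometric mean of 4 libraries).

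The arms of the hairpins were kept in very different proportions. Of the reads on both arms of the miR-143 hairpin, rno-miR-143* made up 0.0241% ± 0.0047 in controls and 0.0332% ± 0.0053 after AA (SD, n = 4 each, exact permutation test, two-sided, p = 0.0571). For the miR-145 hairpin, rno-miR-145* made up 2.68% ± 0.24 and 2.47% ± 0.45 (SD, n = 4 each, exact permutation p = 0.457). These shares compare the same reads as the arm ratios tested below and are not separate results. For those ratios, the exact permutation p adjusted over 10 pairs was 0.143 for miR-143 and 0.679 for miR-145. Over the 88 hairpins with both arms among the tested miRNAs, the mean arm-to-star ratio of miR-143, at 3578, was the second highest after that of miR-378, while the ratio of miR-145, at 38.1, ranked 47, close to the median hairpin at 46.2. Across the 8 libraries the ratio of miR-145 to its star was among the steadier, with an SD of 0.22 on the log2 scale, which ranked 7 of 88 from the smallest. The median SD was 0.47, and that of miR-143 was 0.36. The gel band cut for the libraries held RNAs of 22 to 30 nt, whereas the RefSeq star arms are 21 nt long and the abundant arms 22 and 23 nt, and the part of this cut in the arm ratios was not tested. Neither ratio was free of overlap between the groups, as 13.6% of the 88 were.

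**Figure D1:**
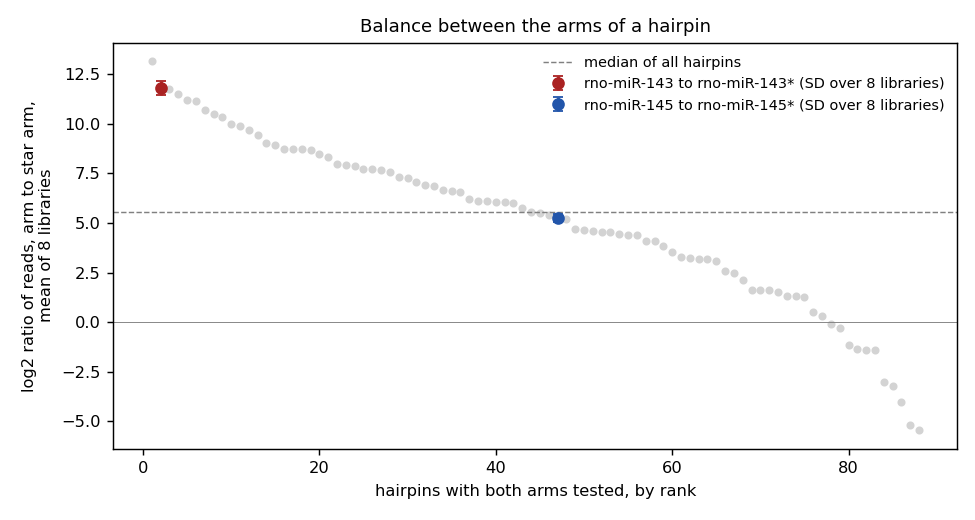
Log2 ratio of the reads on the named arm to the reads on the star arm, mean of 8 libraries. The 88 hairpins whose arms share a name but for the star are ordered by rank. The SD over the 8 libraries is drawn for miR-143 and miR-145. miR-143 sits at rank 2 and miR-145 at rank 47, next to the dashed median.

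The question put to the AA and control groups was whether a carcinogenic course of AA changed the level of the cluster. None of its 5 rows passed edgeR's test, in which the lowest unadjusted p was 0.059, for rno-miR-143, and DESeq2's lowest adjusted p in the 5 rows was 0.12. Among 367 miRNAs that reached 10 reads in 4 or more libraries, 60 or 16.3% had a Benjamini-Hochberg adjusted p under 0.05 by the quasi-likelihood test of edgeR, 10.4% higher and 5.99% lower after AA. The calls were 38 higher and 22 lower with TMM scaling, and 54 and 14 with total counts. The CPM of the groups did not overlap in 24.3% of the 367 tested miRNAs. The groups overlapped in all 5 rows of the cluster, which are too few to set apart from that share. In whole tissue, fewer cells of a type and less of the miRNA per cell cannot be told apart.

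rno-miR-143, the arm known for acting on the transcription factor ELK1 in smooth muscle, was at 183575, 236680, 176413 and 197933 CPM in the control libraries 1 to 4. In the AA libraries 1 to 4 it was at 183241, 150335, 143338 and 141842 CPM. The AA libraries 2, 3 and 4 lay below every control library, and AA library 1 lay within the control range. The group means were 198650 ± 26886 and 154689 ± 19391 CPM (SD, n = 4 each), and the log2 fold change was -0.36 (standard error 0.17, 95% interval -0.74 to 0.02, adjusted p = 0.18 from edgeR). Without AA library 1 the log2 fold change was -0.57 (adjusted p = 0.0997 from edgeR), and in 8 fits that each left out 1 library and 7 other settings no adjusted p was under 0.05.

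As a share of all reads, rno-miR-143 took 18.5% ± 2.47 in controls and 16.6% ± 1.60 after AA (SD, n = 4 each, exact permutation test, two-sided, p = 0.171, adjusted 0.25 over the 5 rows). Without control library 2, the highest, the difference was -0.775 percentage points in place of -1.92. An abundant row of this kind is itself part of the total. When the 3 most abundant other miRNAs, rno-miR-378, rno-miR-30a and rno-miR-10a-5p, were taken out of the totals, the share was 35.4% ± 4.01 in controls and 27.5% ± 2.47 after AA (SD, n = 4 each), a difference of -7.95 percentage points. Its exact permutation p was 0.0286, the smallest that 4 against 4 rats allow, and 0.143 when adjusted over the 5 rows. Of the miRNAs taken out, rno-miR-378 was itself lower after AA, with a log2 fold change of -0.75 (edgeR, adjusted p = 0.019). Among those left in the totals, rno-miR-21 was higher after AA, with a log2 fold change of 1.99 (edgeR, adjusted p = 0.0012). Its means were 32390 CPM in controls and 128589 CPM after AA. How much of the difference of -7.95 points came from rno-miR-21 in the totals was not tested.

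rno-miR-145, the arm known for acting on KLF4 and KLF5, leaned the other way. It was at 566, 640, 629 and 427 CPM in the control libraries and at 580, 742, 719 and 686 CPM in the AA libraries, each in the order 1 to 4. The AA libraries 2, 3 and 4 lay above every control library, and AA library 1 again lay within the control range. The log2 fold change was 0.27 (standard error 0.17, 95% interval -0.12 to 0.65, adjusted p = 0.32 from edgeR), with means of 566 ± 97.8 and 682 ± 71.8 CPM (SD, n = 4 each). Without control library 4, the lowest, the log2 fold change was 0.15, and without AA library 2 or AA library 4 it was 0.16 and 0.17.

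With TMM scaling the star arms had log2 fold changes nearer to 0 than the abundant arms. With total counts they were 0.29 for rno-miR-143* and 0.36 for rno-miR-145*, against -0.16 for rno-miR-143 and 0.48 for rno-miR-145. rno-miR-143* was at 45.6, 56.3, 52.2 and 35.8 CPM in the control libraries and at 47.5, 49.1, 52.6 and 53.5 CPM in the AA libraries, a log2 fold change of 0.09 (standard error 0.19, 95% interval -0.34 to 0.53, adjusted p = 0.75 from edgeR). All 4 AA values fell inside the control range. rno-miR-145* was at 17.02, 17.2, 15.3 and 12.4 CPM in the control libraries and at 16.9, 17.7, 20.8 and 13.2 CPM in the AA libraries (log2 fold change 0.15, standard error 0.21, 95% interval -0.32 to 0.61, adjusted p = 0.66 from edgeR). Leaving out single libraries gave 0.042 to 0.19 for rno-miR-145*, the lowest without control library 3. As with rno-miR-145 and rno-miR-143*, control library 4 was the lowest of its group, while for rno-miR-143 it was the second highest.

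The row rno-mir-143* held only 5 to 17 reads in a library, which is at the limit of what this depth can compare. Its reads were 6, 12, 10 and 17 in the control libraries and 11, 10, 15 and 5 in the AA libraries, and its log2 fold change of -0.30 had a 95% interval from -1.32 to 0.72 (adjusted p = 0.68 from edgeR). Such doubled names are common in the table, which lists 33 names in both spellings, and in 27 of these the lower-case row had fewer reads over the 8 libraries.

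**Figure D2:**
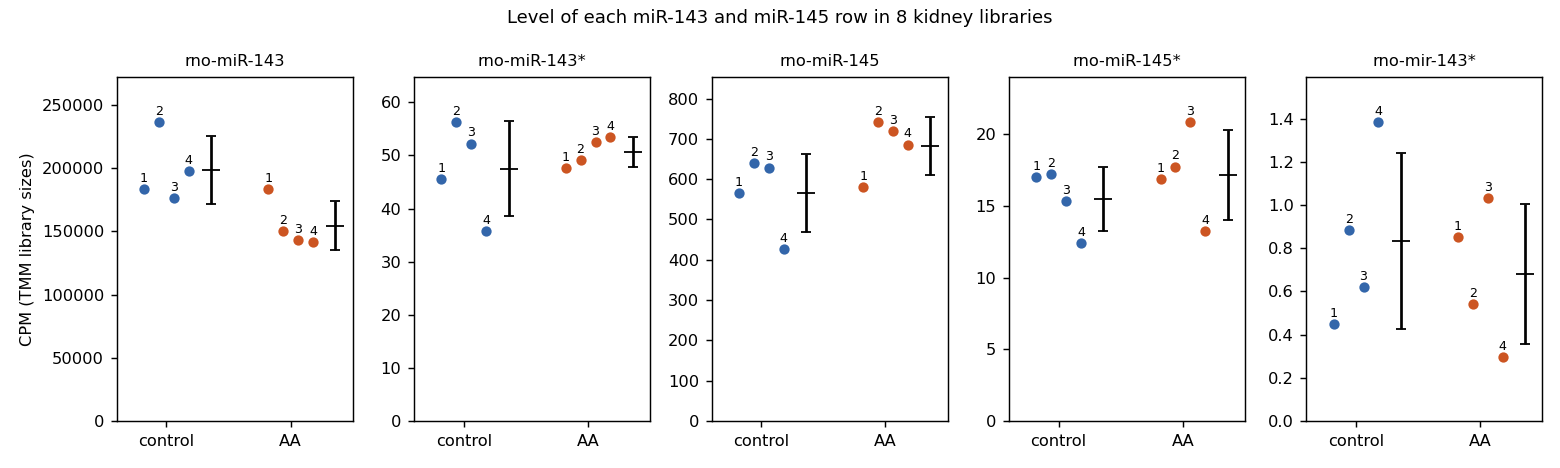
CPM (TMM library sizes) of each of the 5 rows in the 4 control and 4 AA libraries, numbered as in the sample titles, each panel with its own axis from 0, with the group mean and SD as bars. For rno-miR-143 the AA libraries 2 to 4 sit at 141842 to 150335, below the control libraries, and for rno-miR-145 they sit at 686 to 742, above them.

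The scaling between libraries moved all 5 rows together. With total counts in place of TMM scaling, the median log2 fold change of all tested miRNAs went from 0.06 to 0.27, and the log2 fold changes of rno-miR-143 and rno-miR-145 became -0.16 and 0.48. Relative to that median, rno-miR-143 was at -0.42 with TMM scaling and at -0.43 with total counts, and rno-miR-145 was at 0.21 and 0.20.

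A ratio of 2 rows within a library needs no scaling at all and compares members of 1 transcript directly. The 10 pairs of rows were each tested by an exact permutation test on the log2 ratio with 0.5 reads added (two-sided, adjusted over the 10 pairs), for which 4 against 4 rats allow no p below 0.0286. No pair passed an adjusted p of 0.05, and the groups overlapped in all 10. A single pair at the smallest p could not have passed once adjusted over the 10 pairs, so this does not exclude a change in 1 ratio. The lowest p was 0.0571, shared by 4 pairs, with an adjusted p of 0.143.

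The largest difference among the 4 rows spelled with miR was between the abundant arms. There were 324, 370, 280 and 463 reads of rno-miR-143 for each read of rno-miR-145 in the control libraries, and 316, 203, 199 and 207 in the AA libraries. AA libraries 2, 3 and 4 lay within a narrow band below every control library, and AA library 1 lay inside the control range. The mean log2 ratio was 8.46 ± 0.31 in controls and 7.82 ± 0.32 after AA (SD, n = 4 each), a difference of -0.64 (standard error 0.22, exact permutation p = 0.0571, adjusted 0.143), or 0.642 times the control ratio. Leaving out each library in turn gave differences from -0.80 without AA library 1 to -0.51 without control library 4. With 3 against 4 rats the smallest p is 0.0571, so that these could not pass the threshold.

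The ratios of rno-miR-143 to the star arms leaned the same way. Against rno-miR-143*, the ratios were 4027, 4204, 3379 and 5535 in the control libraries and 3855, 3062, 2727 and 2652 in the AA libraries, a log2 difference of -0.47 (standard error 0.19). Against rno-miR-145*, the log2 difference was -0.50 (standard error 0.20). Both had the same p of 0.0571 (exact permutation, adjusted 0.143). These 3 comparisons share the values of rno-miR-143 and are not independent of each other.

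The 3 less abundant rows spelled with miR had smaller differences between the groups in their ratios to each other. There were 12.4, 11.4, 12.0 and 11.9 reads of rno-miR-145 for each read of rno-miR-143* in the control libraries, and 12.2, 15.1, 13.7 and 12.8 in the AA libraries. The AA libraries 2, 3 and 4 lay above every control library. The log2 difference was 0.17 (standard error 0.07, exact permutation p = 0.0571, adjusted 0.143), the smallest standard error of the 10 pairs, and without AA library 2 it was 0.11. Its p was the same as for the 3 comparisons with rno-miR-143 above, so the test did not set this pair apart from them. The ratio of rno-miR-145 to rno-miR-145* differed by 0.14 (standard error 0.16, exact permutation p = 0.429) and by 0.015 without AA library 4, and that of rno-miR-143* to rno-miR-145* by -0.03 (standard error 0.17, exact permutation p = 0.914).

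**Figure D3:**
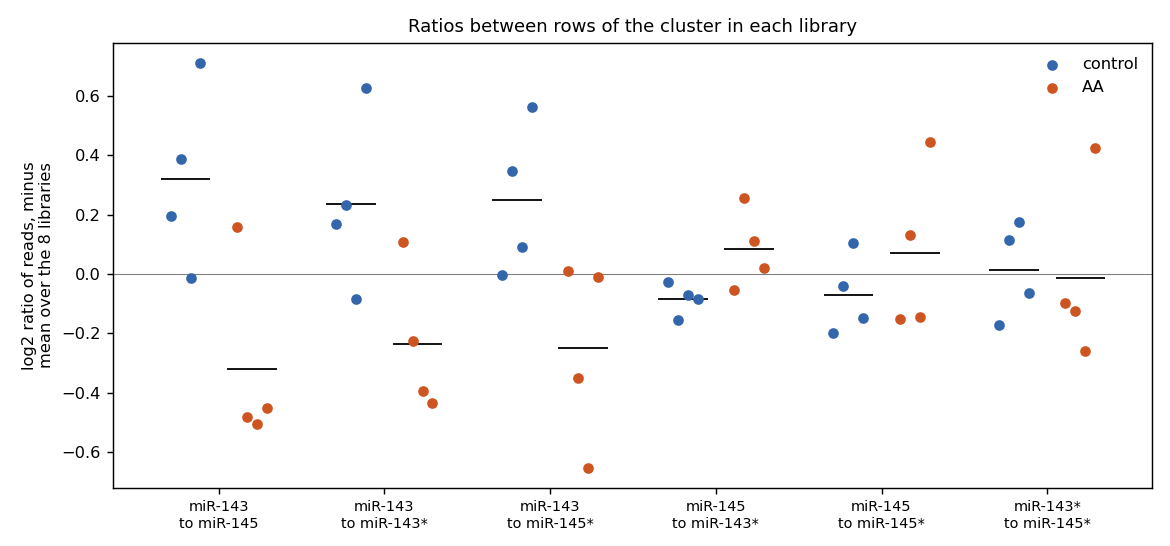
Log2 ratio of reads for the 6 pairs among rno-miR-143, rno-miR-143*, rno-miR-145 and rno-miR-145*, each centred on its mean over the 8 libraries, with a point for each library and a line at each group mean. The pairs with rno-miR-143 differ by -0.64 to -0.47 between the groups, while the 3 pairs without it differ by -0.03 to 0.17.

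Whether co-transcribed rows varied together over the libraries was read from the correlation of log2 CPM over the 8 libraries, for the same 10 pairs (exact permutation, two-sided, adjusted over the 10 pairs). With TMM scaling the highest correlation was between rno-miR-145 and rno-miR-143*, from different hairpins, with Pearson's r = 0.861 (exact permutation p = 0.0173, adjusted 0.173) and Spearman's rho = 0.667 (exact permutation p = 0.0831, adjusted 0.321). Without AA library 2 and control library 4, the farthest in rno-miR-145, r was 0.748 (n = 6, exact permutation p = 0.0806). With total counts r was 0.957 (exact permutation p = 5.0e-05, adjusted 0.00050) and rho was 0.976 (exact permutation p = 0.00040, adjusted 0.0040), and without the same 2 libraries r was 0.931 (n = 6, adjusted exact permutation p = 0.0278). The call for this pair was made with total counts and not with TMM scaling. These correlations pool both groups and so hold the difference between the groups as well as that between rats, and 4 rats in a group were too few for a correlation within it. The labels name no batch.

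For rno-miR-143 and rno-miR-145, r was -0.561 (exact permutation p = 0.149, adjusted 0.402) and rho was -0.667 (exact permutation p = 0.0831, adjusted 0.321). With total counts r was -0.144 (exact permutation p = 0.738). Without control library 2 and AA library 4, the farthest in rno-miR-143, r was -0.902 (n = 6, exact permutation p = 0.0042, adjusted 0.0417), whereas with total counts and without the 2 libraries farthest on that scale it was 0.03. The relation thus depended on the scaling and on which libraries were kept. Between the arms of a hairpin, r was 0.613 for rno-miR-145 and its star (exact permutation p = 0.107, rho 0.643, p = 0.0962) and -0.195 for rno-miR-143 and its star (exact permutation p = 0.646, rho -0.310, p = 0.462). Adjusted over the 10 pairs, these 4 p-values were at least 0.321.

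**Figure D4:**
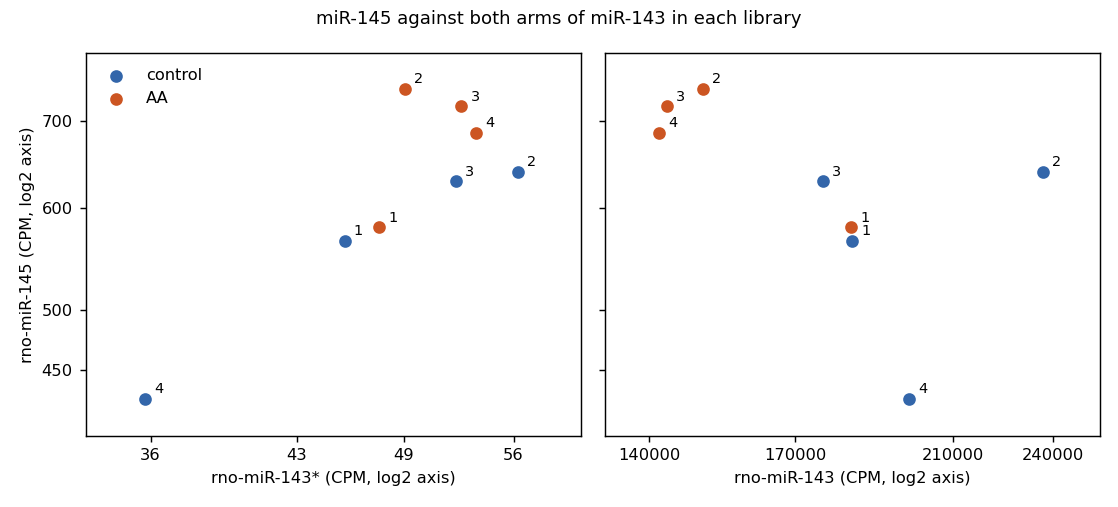
CPM of rno-miR-145 against rno-miR-143* (left) and against rno-miR-143 (right) in the 8 libraries, on log2 axes, numbered as in the sample titles and coloured by group. On the left the libraries run from control 4 at 427 CPM of rno-miR-145 up to AA 2 at 742, with r = 0.861, and on the right r is -0.561.

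The miRNAs most like each abundant arm were found by the SD over the 8 libraries of the log2 ratio of their reads, among 366 others, which is a description without a test. For rno-miR-145 the smallest SD was that of rno-miR-301a (0.10), followed by rno-miR-143* and rno-miR-16 (0.13 each), against a median SD of 0.52. rno-miR-145* ranked 22 and rno-miR-143 ranked 148. For rno-miR-143 the closest were rno-miR-330* (0.12), the row rno-mir-322* (0.19) and rno-miR-139-5p (0.19), against a median of 0.54. The other rows of its own cluster came later, with rno-miR-143* at rank 78, rno-miR-145* at 96, rno-miR-145 at 139 and the row rno-mir-143* at 224. The star arm of the neighbouring hairpin thus stood second in likeness to rno-miR-145, while the closest row of the cluster to rno-miR-143 had an SD of 0.36.

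Other miRNAs described in the control of smooth muscle phenotype moved in part. Of a list of 15, all were listed and 14 were tested, with miR-133b below the read cutoff. In the AA group 4 rose (10.4% of all tested miRNAs rose), none fell and 10 did not pass the test, and the median log2 fold change of the list was 0.0076, against 0.06 over all tested miRNAs. rno-miR-221 and rno-miR-222, neighbours on 1 transcript that are known to promote smooth muscle proliferation, had log2 fold changes of 0.87 and 0.80 (adjusted p = 0.021 and 0.019 from edgeR), at means of 55.2 ± 12.3 and 101.0 ± 15.0 CPM for the first and 21.0 ± 3.55 and 36.7 ± 4.33 CPM for the second (SD, n = 4 each, control and AA). rno-miR-21, a miRNA of fibrosis and growth, had a log2 fold change of 1.99 and rno-miR-322, a relative of miR-16 by seed, of 0.90 (adjusted p = 0.0012 and 0.017 from edgeR). The list was drawn up with earlier results of these data known, among them the rise of rno-miR-21. Its counts are therefore not independent evidence of a direction. The 10 that did not pass had log2 fold changes from -0.81 to 0.97.

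Of 8 further miRNAs known from stromal cells and fibroblasts, all were tested, 1 rose, 1 fell and 6 did not pass the test, close to the shares of all tested miRNAs that rose (10.4%) and fell (5.99%), with a median log2 fold change of 0.13 against 0.06 over all. rno-miR-199a-3p, which is cut in part from the Dnm3os transcript, rose by 0.65 on the log2 scale and rno-miR-152, known for acting on DNA methyltransferase 1, fell by 0.75 (adjusted p = 0.033 and 0.011 from edgeR). The other 6 had log2 fold changes from -0.13 to 0.80.

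**Figure D5:**
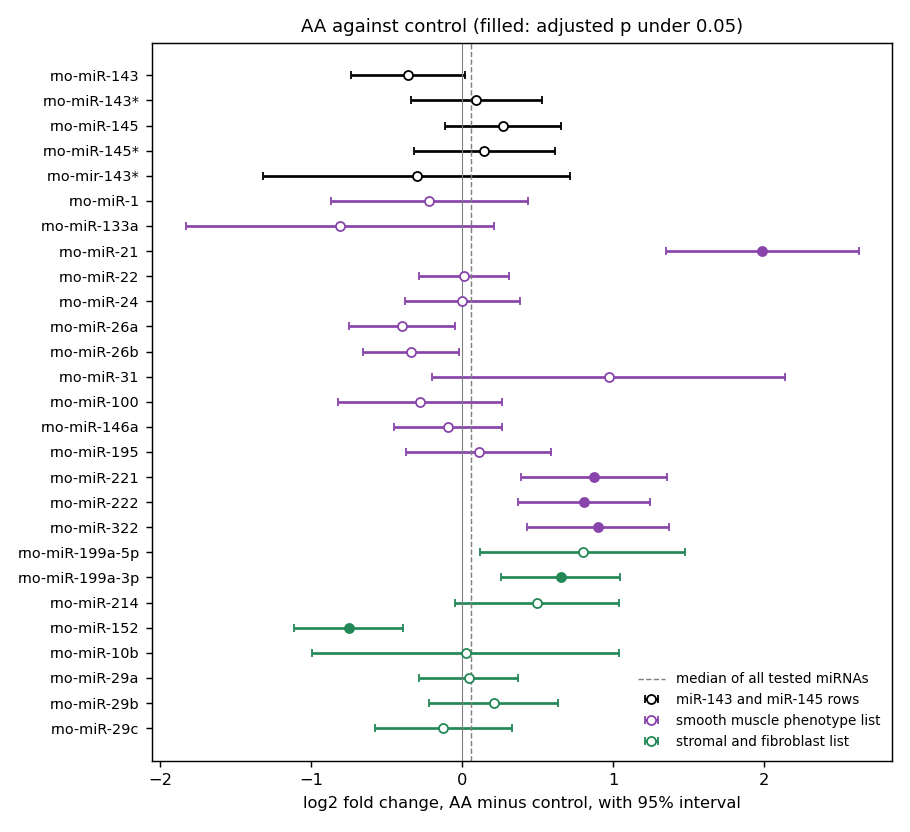
Log2 fold change (AA minus control, edgeR with TMM scaling) with 95% interval for the 5 rows of the cluster, 14 miRNAs of the smooth muscle phenotype list and 8 of the stromal list, filled where the adjusted p is under 0.05, with the median of all tested miRNAs dashed. All 5 intervals of the cluster include 0, and the filled points are rno-miR-21, rno-miR-221, rno-miR-222, rno-miR-322 and rno-miR-199a-3p above 0 and rno-miR-152 below.

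The labels give the tissue as liver in 1 field and as kidney in the protocol. The liver miRNA rno-miR-122 was at 0.696 to 523 CPM over the 8 libraries, whereas the nephron miRNAs summed to 163912 to 235702 CPM in the control libraries and 126462 to 180753 CPM in the AA libraries. Most of that sum was rno-miR-30a, with means of 125631 CPM in controls and 111448 CPM after AA. Whether the sum sets kidney apart from liver was not tested. Of the 6 nephron miRNAs 2 fell, where 5.99% of all tested miRNAs did. Of 6 leukocyte miRNAs, 5 were listed, without miR-155, and rno-miR-142-3p and rno-miR-223 rose, where 10.4% of all tested miRNAs did. Their summed level was 2127 to 3045 CPM in the control libraries and 3401 to 5602 CPM in the AA libraries, and the difference of the sums lay in rno-miR-142-3p, with means of 954 and 2649 CPM. The other leukocyte rows were rno-miR-142-5p at a log2 fold change of 0.30, rno-miR-150 at 0.58 and rno-miR-146a, which is also in the smooth muscle list, at -0.09 (adjusted p = 0.56, 0.062 and 0.71 from edgeR).

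The tested markers of 4 other cell types had adjusted p-values from 0.18 to 0.85 (edgeR) and were not called. In the control and AA libraries, the endothelial arms of miR-126 summed to 8118 to 10934 and 6178 to 9455 CPM, the epithelial miRNAs to 7114 to 10933 and 5533 to 9871 CPM, and the striated muscle miRNAs to 143 to 182 and 104 to 176 CPM. The red blood cell miRNAs, 2 of 3 listed without miR-486, summed to 499 to 798 and 158 to 564 CPM. No listed marker was at 0 in all libraries, and the part of these levels in the values of the cluster was not tested.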

How the data were processed

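Small RNA of 8 rat kidneys was read on the Illumina Genome Analyzer II platform. The authors deposited raw read counts per known rat miRNA and library, not normalized, and their methods describe mapping to miRBase by Bowtie within miRanalyzer. Versions of these tools and the mismatches allowed for known miRNAs are not given in the sources used here, and the submitters' processing notes also name DESeq. Groups and numbers were taken from the sample titles. Libraries of a group differed by a chi-square of at least 437 per degree of freedom, so that each was counted as its own sample. A miRNA was tested if 4 or more libraries held 10 or more reads, which 367 did, by edgeR 4.0.16 under R 4.3.3 (quasi-likelihood test, TMM scaling, Benjamini-Hochberg adjustment), a step first tested on simulated data. The standard error was the log2 fold change divided by the square root of F. Ratios, shares and correlations were tested by exact permutation in SciPy 1.17.1, and hairpins were folded with RNAfold 2.7.2. Reads per library were 5 to 17 for rno-mir-143* and at least 152 for the other rows, and reads are not independent molecules, since PCR copies were not marked. No test for the sequencing counts of known miRNAs was found in the study's methods. The column sums of the table, used here as depth, are larger than the read numbers in the study's text, and the reason was not resolved. Alternatives were DESeq2 size factors, total counts, scaling without the 5 rows, the DESeq2 1.42.0 Wald test, 2 read cutoffs, a block for the number in the titles, and leaving out single libraries. Named miRNAs were the 5 rows, their neighbours in abundance, the 3 most alike to each abundant arm, and the called members of the smooth muscle and stromal lists. List members that were missing or not tested were named too. The leukocyte rows, rno-miR-122 and miR-126 were named whether called or not, and the 2 called nephron miRNAs were not named. The 3 abundant miRNAs taken out of the totals and the 2 called leukocyte miRNAs were named after their values were seen. The same holds for rno-miR-103 and rno-miR-103-2*. The members and lists were chosen with earlier results of these data known.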

Additional observations from a re-analysis of the deposited data

Results flagged for a closer look

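Only 1 value stood apart from its group of 4 libraries. The log2 ratio of rno-miR-143 to rno-miR-145 was 8.30 in AA library 1, against 7.64 to 7.69 in the other AA libraries, so that its gap to the nearest of them was 0.921 of the whole range of the group. Over the 30 groups of 4 values examined, about 1.5 would stand apart by chance.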

How the results depend on the processing

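No alternative brought the log2 fold change of a row of the cluster past an adjusted p of 0.05. The same held for ratios and shares, but with 1 library left out their exact p cannot go below 0.0571, so those fits could not have passed. With all 8 libraries, a single ratio or share at the smallest p could not have passed after adjustment either. The number of miRNAs called over the whole table, 60, was between 35 (without control library 2) and 51 when 1 library was left out, with 37 without control library 1. With the library number as a replicate block, 78 were called and the log2 fold changes of rno-miR-143 and rno-miR-145 were -0.36 and 0.28 (edgeR, adjusted p = 0.20 and 0.21). The correlations of same-numbered libraries' deviations were 0.05, 0.22, 0.18 and 0.41. They were not set against those of libraries with different numbers, so whether the numbers mark pairs was not settled. The main fit did not use the numbers.

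Leaving out 1 library at a time turned the sign of values near 0, none of them called. The range was -0.038 to 0.18 for the log2 fold change of rno-miR-143* (negative without control library 4 or AA library 4) and -0.57 to 0.034 for that of rno-mir-143*, whose share difference ranged from -1.8e-05 to 1.0e-05 percentage points. The log2 ratio difference ranged from -0.34 to 0.22 for rno-miR-143 to rno-mir-143* and from -0.17 to 0.054 for rno-miR-143* to rno-miR-145*. For correlations the count past the threshold went from 0 to 1 under each alternative. It was rno-miR-145 with rno-miR-143* with total counts (r = 0.957), also without the 2 farthest libraries (0.931), and rno-miR-143 with rno-miR-145 with TMM scaling without the 2 farthest (-0.902). Without the 2 farthest, r turned to -0.244 for rno-miR-143* with rno-miR-145* and to 0.075 for rno-miR-145 with rno-mir-143*. With total counts as well, a setting chosen after seeing the data, r turned to 0.030, 0.314 and 0.147 for rno-miR-143 with rno-miR-145, rno-miR-143 with rno-miR-145* and rno-miR-145 with rno-mir-143*. The causes were not tested. rno-mir-143* had no value at 10 reads in all 8 libraries.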
